A study of Caenorhabditis elegans with 2 samples.

Results

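F52B5.7 is the gene whose GFP-tagged product was pulled down in this chromatin immunoprecipitation sequencing (ChIP-seq) experiment. It is described here with 4 genes beside it on chromosome I, abts-1, cep-1, F52B5.3 and C34B7.1. The 5 genes, of 19973 protein-coding genes on the 6 nuclear chromosomes, were chosen by the positions and number of the summits in these lists, because the stretch around the tagged gene held many peaks and the tagged gene none. Regions were assigned to the stretch when their summit, the position of highest enrichment, lay within 20 kb of the midpoint of F52B5.7. By that rule 10 of 1032 optimal peaks, 30 of 30000 pooled candidates, 28 of 30000 candidates of replicate 1 and 36 of 30000 of replicate 2 were kept. The values below therefore describe the stretch, and no test was made of its peak number or of its gap.

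Both libraries came from whole young adult Caenorhabditis elegans of strain OP606, with sex given as males and females pooled, collected 63 h after synchronisation as starved L1 larvae. All animals carried the unc-119(tm4063) mutation and the integrated transgene wgIs606, which encodes F52B5.7 fused to GFP and FLAG at the C terminus. An anti-GFP antibody was used, and the labels give 2 biological replicates, which make up 1 group. Not given in the sources used here were its promoter, its copy number and the length of genomic sequence it carries. Reads of the transgene and reads of the native locus cannot be told apart in the lists. Peak number and signal in the stretch therefore cannot be separated from any added copies of its sequence in the transgene, and this was not tested. Read depth is unknown from the lists, and the control experiment was not analysed here.

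RefSeq describes the F52B5.7 product as a protein with a C2H2-type domain, a zinc-binding fold found in many DNA-binding proteins. The neighbours have different roles. The protein encoded by abts-1 is an anion exchanger that moves chloride and bicarbonate across the cell membrane. The cep-1 gene encodes the worm relative of the tumour suppressor p53, a transcription factor known for germ cell death after DNA damage. RefSeq lists F52B5.3 under the symbol ythc-2, with a product like spindle-E, an RNA helicase named in Drosophila, and C34B7.1 as a gene for a UPAR/Ly6 domain protein.

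The genes stand in a fixed order in Ensembl's WBcel235 (ce11) models. F52B5.7 occupies positions 8313121 to 8315432 of chromosome I on the minus strand, with 1 transcript of 4 exons. On its downstream side, abts-1 (8296917 to 8307566, minus strand) has 3 transcripts with 3 start sites. On its upstream side, F52B5.2, for which RefSeq gives a protein kinase domain, and F52B5.3 (8318347 to 8323987) follow on the same strand. Then come cep-1 (8324286 to 8328859) with 5 transcripts, the ribosomal protein gene rpl-25.2, and C34B7.1 (8330450 to 8332784), with cep-1 and C34B7.1 on the plus strand.

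**Figure D1:**
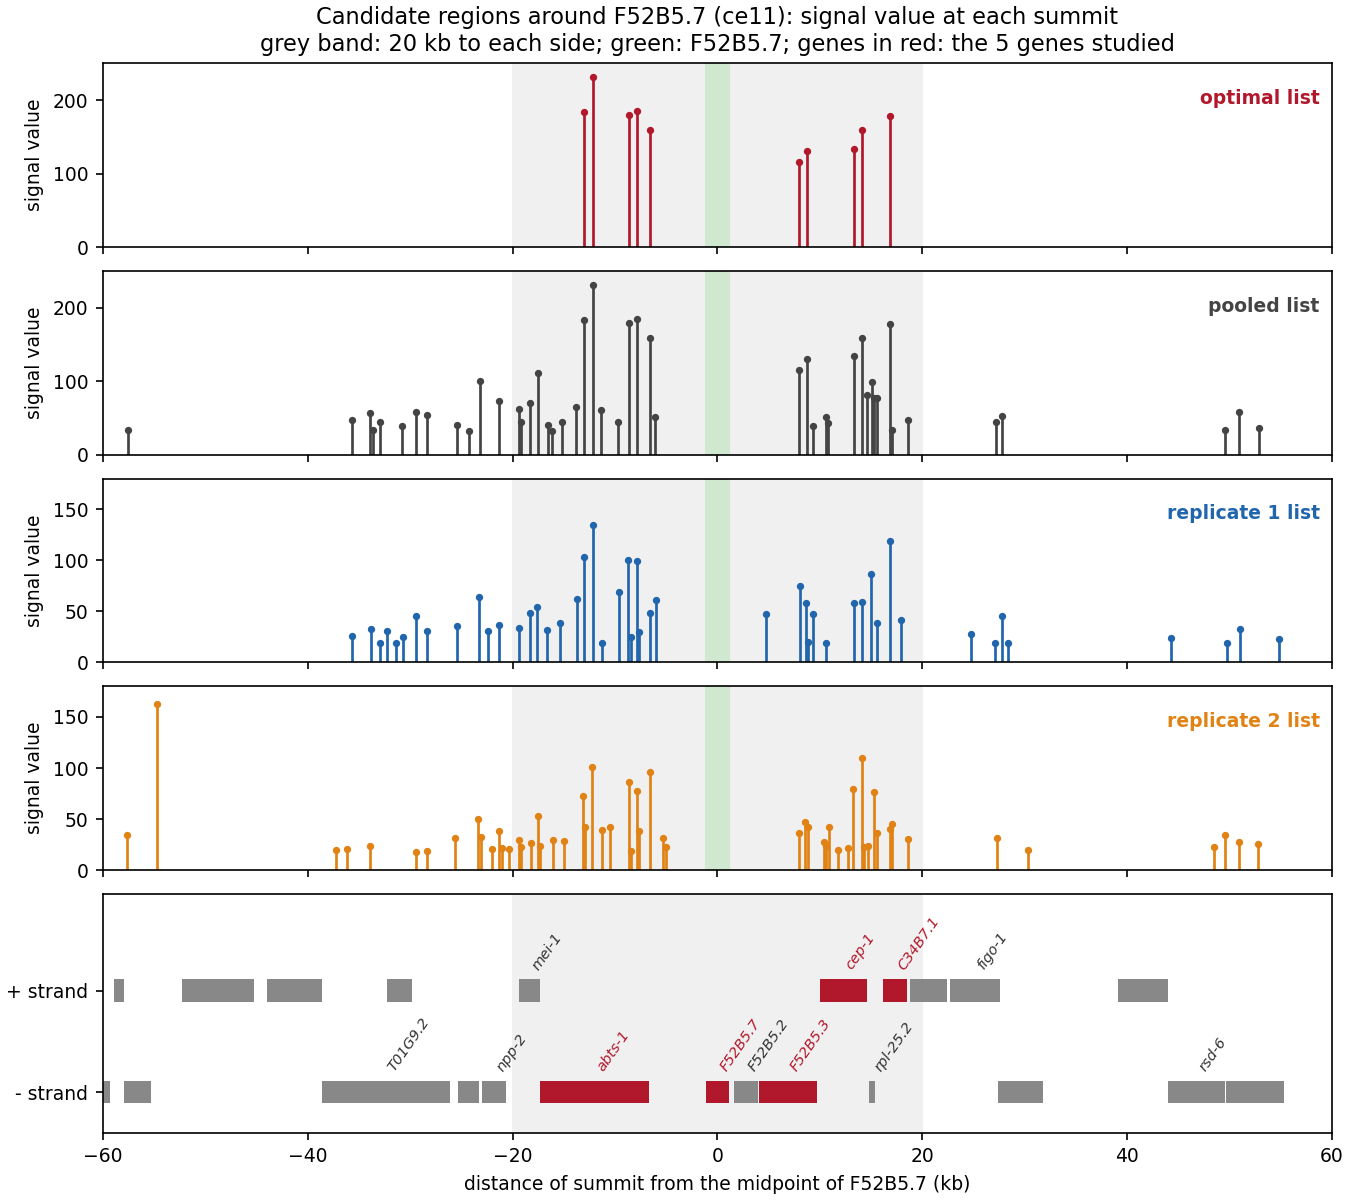
Signal value (y axis, the authors' scale) at the summit of each region against distance in kb from the F52B5.7 midpoint, for the optimal, pooled and both replicate lists, with protein-coding genes by strand below. The 10 optimal peaks form a group of 5 on each side, and no region of any list falls in F52B5.7.

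The 10 optimal peaks lay in 2 groups of 5, one over abts-1 and one from F52B5.3 to C34B7.1. F52B5.7 and F52B5.2 lay between them without a summit in any of the 4 lists. Of the 5 genes, 4 had an optimal summit inside the gene, against 2.51% of all protein-coding genes. With 1000 bp added on either side of each gene, the same 4 had one, against 6.52%, and the same 4 had a pooled candidate, against 60.9%. All 10 regions were 390 bp wide, the width of 80.7% of optimal peaks.

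At abts-1, the exchanger gene, 4 optimal summits lay in the gene and 1 just outside it. The strongest of the 10 peaks spanned positions 8301896 to 8302285, with its summit at 8302091 in an intron and a signal value of 231 (optimal rank 126). Its signal was 135 in replicate 1 and 101 in replicate 2, where the region ranked 95 and 228. The neighbouring summit at 8301246 lay 845 bp away in coding sequence, in exon 6 of 11 of the longest transcript, with a signal of 184. That region had 103 in replicate 1 and 72.9 in replicate 2, with ranks 221 and 658. Both of these peaks were thus inside the gene body, over 4 kb from the nearest abts-1 start site.

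The other 3 peaks at abts-1 lay by its start sites. The summit at 8305620 was in an intron, 802 bp inside the shortest transcript, with a signal of 179 (101 in replicate 1, 86.7 in replicate 2). It lay within F52B5.9, a noncoding RNA gene annotated on the opposite strand. The summit at 8306442 fell in the 5′ UTR of the middle transcript and at -20 bp from the start of the shortest. Its signal was 185, with 99.1 in replicate 1 and 77.2 in replicate 2. The last of them, at 8307696, lay at -130 bp from the outermost start site and inside the noncoding RNA gene F52B5.10. It was the only one of the 10 outside a protein-coding gene. Its signal was 159, with 48.3 in replicate 1 against 95.9 in replicate 2, so the replicates ordered it differently from the other 4.

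F52B5.3, the helicase gene, held 2 optimal summits 741 bp apart, the closest spacing in the stretch. The summit at 8322275 lay in coding sequence, in exon 5 of 14, with a signal of 115. This was the weakest of the 10 and ranked 1025 of 1032, just above the weakest optimal signal of 114.6. Replicate 1 gave it 75.3 and replicate 2 gave it 36.0. The second summit, at 8323016 in intron 3, had a signal of 130.3, with 57.9 in replicate 1 and 47.1 in replicate 2. It ranked 1629 and 2780 there, the only one of the 10 outside the strongest 1032 regions of both replicates. Replicate 1 had 5 candidates with their summit in F52B5.3. The candidate near the end of the gene, at 8318985 with a signal of 47.5 (rank 3365), was the nearest region to F52B5.7 in any list.

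At cep-1, the p53-related gene, both optimal summits lay in coding sequence of the second part of the gene. The summit at 8327612 was in exon 10 of 13 of the long transcript, 3317 bp from its start and 149 bp inside the start of the short transcript F52B5.5b.1. Its signal was 134, with 58.5 in replicate 1 and 79.0 in replicate 2. The summit at 8328399 was in exon 12 of 13, with a signal of 159.1, against 59.6 in replicate 1 and 109.9 in replicate 2. Both were stronger in replicate 2, where they ranked 510 and 180, against 1565 and 1461 in replicate 1. No optimal summit lay near the outer start sites of cep-1, where the pooled list had candidates at 8324880 (signal 50.7) and 8325103 (signal 43.3).

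C34B7.1, the UPAR/Ly6 domain gene, held 1 optimal summit, at 8331125 in coding sequence of exon 2 of 8, 675 bp from the start. Its signal was 179 (optimal rank 287). It was the peak on which the replicates differed most in rank, with 119 and rank 143 in replicate 1 against 45.0 and rank 3189 in replicate 2. In replicate 2 the strongest overlapping region had its summit at 8331365 in an intron, 240 bp away, the largest shift among the 10 peaks in either replicate. A weaker region of replicate 2 also overlapped the peak, with its summit nearer, at 8331144 in coding sequence (signal 39.8, rank 4691). Median shifts were 30 bp in replicate 1 and 24.5 bp in replicate 2.

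The ribosomal protein gene rpl-25.2, which RefSeq lists as rpl-23A.2, stood between cep-1 and C34B7.1 without an optimal peak. Both replicates nevertheless had a region of their strongest 1032 there. Replicate 1 had a summit at 8329308 (signal 86.6, rank 382) and replicate 2 at 8329597 (signal 76.5, rank 568), 289 bp apart. The pooled list held 2 candidates in the gene, the stronger with a signal of 99.0 and rank 1642.

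**Figure D2:**
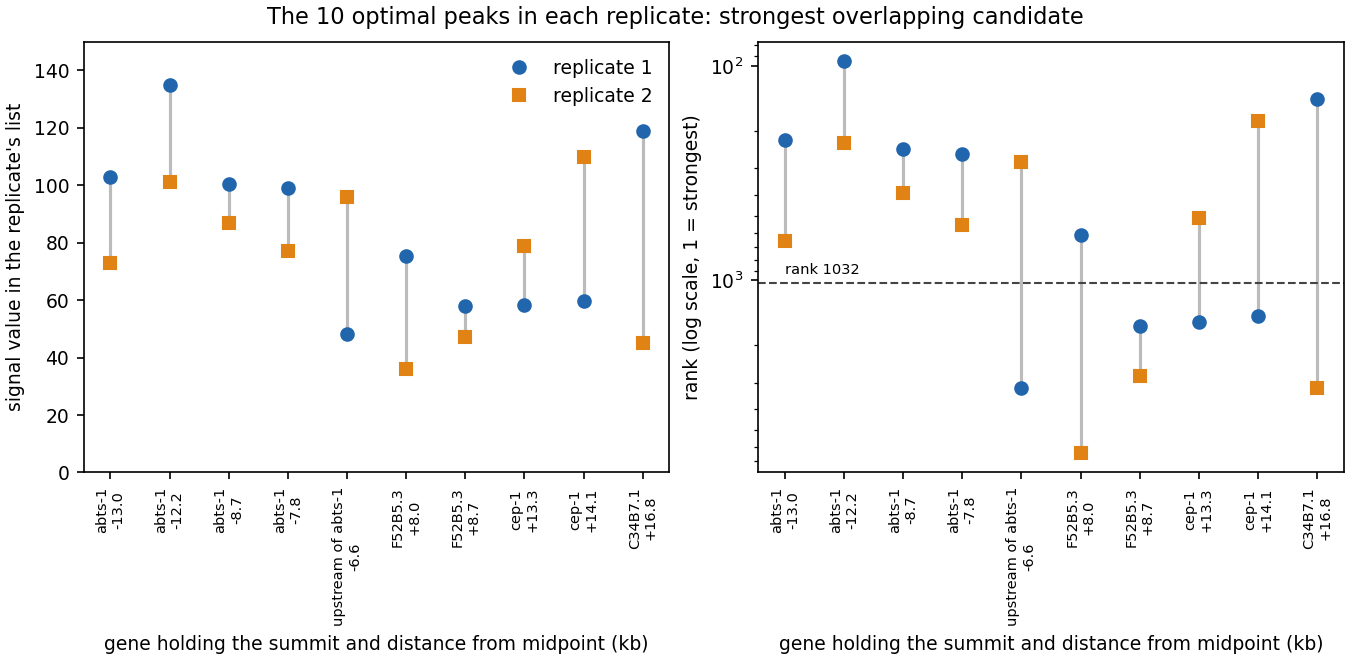
Signal value (left) and rank (right, log scale) of the strongest replicate candidate that overlaps each of the 10 optimal peaks, in genome order. The 4 peaks inside abts-1 rank above 1032 in both replicates, whereas none of the 5 peaks from F52B5.3 to C34B7.1 does.

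The replicates ordered the 10 peaks differently. Every one of the 10 peaks overlapped a candidate in both replicates by at least 1 bp, as did 998 of all 1032 optimal peaks. Replicate 1 held 6 of the 10 among its strongest 1032 regions, against 70.9% of all optimal peaks, and replicate 2 held 7, against 70.5%. Both held 4 of the 10, against 48.6% of all optimal peaks. These 4 were the summits inside abts-1, and the 5 peaks from F52B5.3 to C34B7.1 numbered 0 in both sets. With 5 peaks a side from the same 2 libraries, this split was not tested. Over the 10, the shares were near those of the whole list.

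Ranks differed 10-fold or more between replicates at 3 of the 10 peaks, against 8.42% of the 998 optimal peaks that both replicate lists overlapped. These were the peak just outside abts-1 (11.3-fold), the weaker F52B5.3 peak (10.4-fold) and the C34B7.1 peak (22.3-fold). The first ranked higher in replicate 2 and the other 2 in replicate 1, so neither replicate was higher throughout. The median fold between ranks was 3.02 over the 10 peaks and 2.41 over all optimal peaks. Signal was higher in replicate 1 at 7 of the 10 and at 545 of the 998. The scale of the signal value is not stated, so ranks are the safer comparison.

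Signal at the stretch was moderate. The 10 peaks had a median signal of 169 (115 to 231), against 147 for all optimal peaks and a highest value of 2954. The 5 peaks at abts-1 ranged from 159 to 231 with a median of 184. The 5 from F52B5.3 to C34B7.1 ranged from 115 to 179 with a median of 134, so the ranges overlapped. The −log10 q value stood at its ceiling of 2.98 in 7 of the 10, against 46.1% of optimal peaks.

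Summits in the stretch lay within genes. Of the 10, 9 were in a protein-coding gene body, against 52.6% of all optimal peaks. Genes also cover much of this stretch, with abts-1 10.65 kb long, F52B5.3 5.64 kb and cep-1 4.57 kb. The share of the 40 kb window in gene bodies was not set beside the count, so 9 of 10 shows no preference for genes. The 10 summits share 1 stretch and several share a gene, so they are not independent of each other. Coding sequence held 5, introns 3 and a 5′ UTR 1, and the 10th was outside protein-coding genes. Over all optimal peaks, coding sequence held 21.5%, introns 23.3% and space outside protein-coding genes 47.4%. All 5 summits from F52B5.3 to C34B7.1 were inside genes, 4 of them in coding sequence.

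Around F52B5.7 the lists were empty over 10 kb or more. The gap between optimal summits ran from 8307696 to 8322275, a length of 14.6 kb, and took in F52B5.7, F52B5.2 and the piRNA gene 21ur-15539 whole. In the pooled list it was 14.1 kb, in replicate 1 it was 10.7 kb and in replicate 2 it was 13.1 kb. The nearest summit to F52B5.7 was 5425 bp away in the optimal list, 4918 bp in the pooled list, 3553 bp in replicate 1 and 3896 bp in replicate 2. In the optimal, pooled and replicate 2 lists the gap reached farther on the upstream side and ran over most of F52B5.3. In replicate 1 it ended at 8318985, near the downstream end of F52B5.3, and reached farther on the downstream side (4868 bp against 3553 bp).

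How often an empty stretch of this length occurred depended on the list. Of the 1026 steps between successive optimal summits, 740 were as long as the 14.6 kb gap or longer (72.1%). Of the 29994 steps between successive pooled summits, 1510 were as long as the pooled gap of 14.1 kb or longer (5.03%). No pooled candidate as near as 4918 bp was found for 4049 protein-coding genes (20.3%). F52B5.7 was among 259 genes that had 30 or more pooled candidates in the 40 kb window centred on them. Of these, 2 had a step of 14.1 kb or more in the window (0.772%), F52B5.7 itself and egl-1, a cell death gene. F52B5.7 was the 1 gene of the 259 with no pooled candidate as near to its body (0.386%). A window with that many candidates leaves little room for a long step, windows of neighbouring genes overlap, and F52B5.7 was chosen for its gap. These shares are therefore a description, and they cannot be set against the share of all pooled steps.

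**Figure D3:**
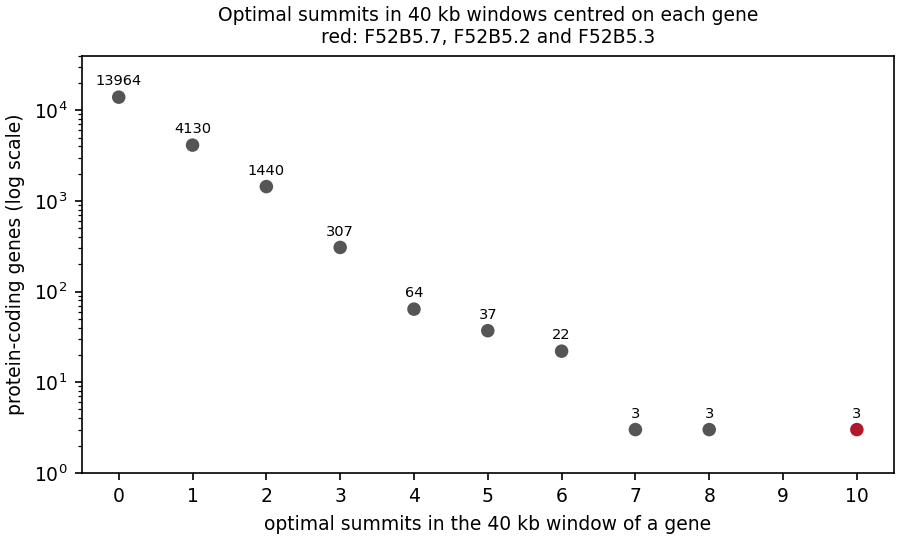
Number of protein-coding genes (y axis, log scale) by the number of optimal summits in the 40 kb window centred on each gene (x axis). The 3 genes at 10 summits, F52B5.7, F52B5.2 and F52B5.3, share the same peaks, and the next genes hold 8.

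Windows of 40 kb held more optimal summits here than around other genes, and the stretch was chosen for that number. The ranking is therefore a description. A 40 kb window centred on a protein-coding gene held a median of 0 optimal summits, and 13964 of the 19973 genes had none. Windows with 10 or more belonged to 3 genes (0.015%), F52B5.7, F52B5.2 and F52B5.3, all on the same peaks. The next densest windows, with 8, were those of cdc-48.1, mnk-1 and pro-1 on chromosome II. Among the strongest 1032 regions of replicate 1, the F52B5.7 window held 8, and 9 genes, itself included, had as many or more, among them cdc-48.1 with 9. Among those of replicate 2 it also held 8, which was the highest count and was shared with F52B5.2 alone. The margin over other loci seen in the optimal list was thus not seen in replicate 1.

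Candidates of any strength were also frequent, but less exceptionally so. The F52B5.7 window held 30 pooled candidates against a median of 11 over all gene windows, and 259 genes, itself included, had as many or more. Replicate 1 had 28, a count reached by 348 genes, and replicate 2 had 36, a count reached by 21. Within 20 kb the pooled list had 7.5 candidates per 10 kb, against 2.99 over all bins of the 6 chromosomes. From 20 to 60 kb away it had 2.13 per 10 kb, of which 12 candidates lay on the downstream side and 5 on the upstream side.

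Median spacing of the 10 optimal summits was 1254 bp, with the smallest step 741 bp and the largest the 14.6 kb gap. Over the whole optimal list the median step was 53200.5 bp. The stretch was chosen for its many summits, and no step inside a 40 kb window can exceed 40 kb. The difference between these medians is therefore a description. The summits came in close sets, at 845 bp and 822 bp inside abts-1, 741 bp in F52B5.3 and 787 bp in cep-1. Longer steps of 3529 bp in abts-1, 4596 bp between F52B5.3 and cep-1 and 2726 bp between cep-1 and C34B7.1 lay between them.

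**Figure D4:**
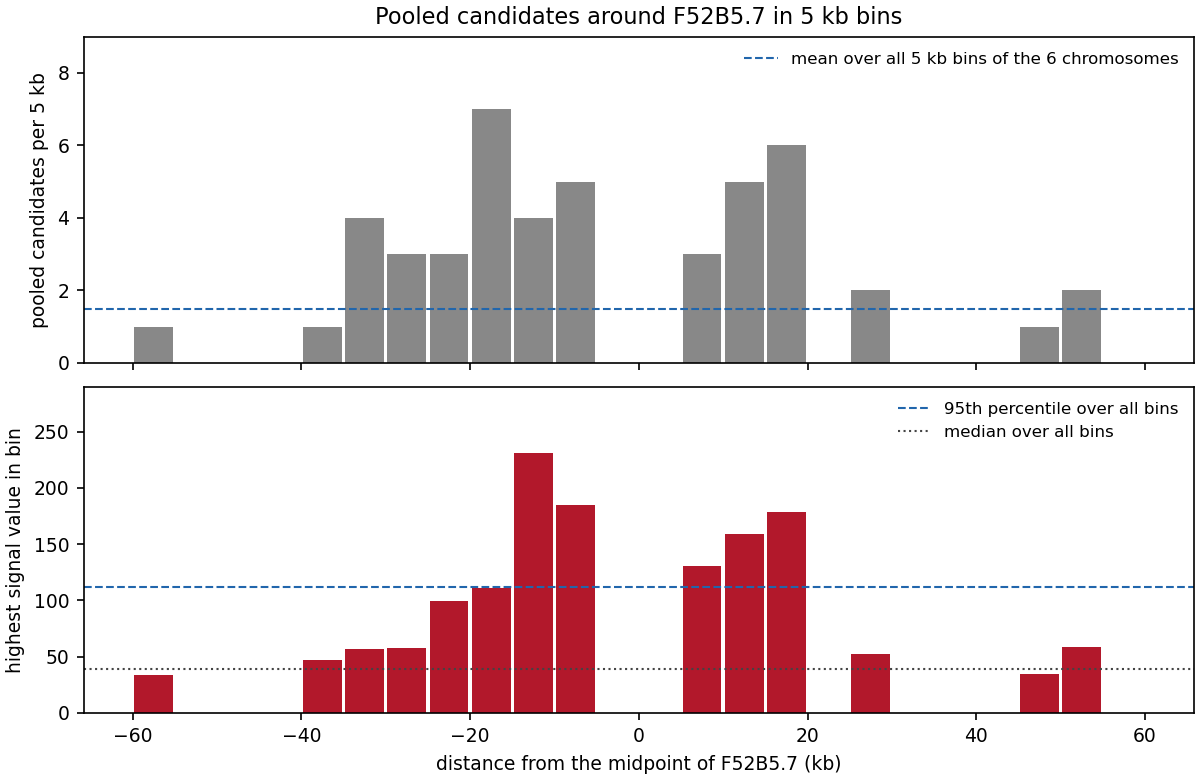
Pooled candidates per 5 kb (top) and the highest signal value in each bin (bottom) against distance in kb from the F52B5.7 midpoint, with lines for the mean, the median and the 95th percentile over all 5 kb bins. The 5 bins above the 95th percentile lie within 20 kb. The 2 bins beside the midpoint are among 10 of the 24 that hold no pooled candidate.

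The optimal peaks ended within 20 kb, and weaker candidates reached farther, most of them on the downstream side. The stretch was measured between the outermost summits within 20 kb of the midpoint, extended outwards while the next summit lay at most 10 kb away, with the gap at F52B5.7 bridged. For the optimal list it was 29.9 kb long, from 8301246 to 8331125, the 14.6 kb gap included. The next optimal summit on the downstream side, 68.6 kb from the midpoint, lay 55.6 kb beyond the stretch, with a signal of 146. On the upstream side the next one was 281 kb beyond. Of the 24 bins of 5 kb out to 60 kb, 5 had a highest pooled signal above the 95th percentile of all bins, 111.5. All 5 lay between 5 and 20 kb from the midpoint, 2 downstream and 3 upstream. Bins with 4 or more pooled candidates numbered 6 of 24, against 13.6% of all bins.

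Downstream of abts-1 the pooled candidates went on to T01G9.2. Extended outwards in the same steps, they ended 35.6 kb from the midpoint (summit 8278633, signal 47.2), and the next candidate lay at 57.6 kb. On the way, mei-1, a gene for a microtubule-severing katanin subunit, held 4 pooled candidates and npp-2, a nuclear pore protein gene, held 1. The strongest in mei-1 lay at 8296752 in its 3′ UTR, with a signal of 111 and rank 1138, just short of the optimal list. A candidate at 8291090 beside kin-10, a casein kinase II subunit gene, had a signal of 99.7. At the 20 kb limit, the pooled summit just inside was at 19.4 kb in mei-1 (signal 61.7) and the one just outside at 21.3 kb in npp-2 (signal 72.7), so the limit did not fall at a drop in signal on this side.

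On the upstream side fewer candidates followed. The last pooled candidate within 20 kb lay at 18.6 kb, beside the start of mys-4, a histone acetyltransferase gene, with a signal of 47.4. None followed in the pooled list until 27.2 kb, where figo-1 and cyp-36A1, a cytochrome P450 gene, had 1 candidate each (signals 43.8 and 52.7). The next were at 49.6 kb and beyond, in rsd-6 and tbcd-1, with signals up to 58.7. Extended in 10 kb steps, the pooled candidates thus reached 35.6 kb on the downstream side and 27.8 kb on the upstream side, a span of 63.4 kb that bridges the pooled gap of 14.1 kb.

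Optimal peaks at other genes of 3 lists, the cep-1 and cell death pathway, anion transporters and DEAH-box helicases, were counted in the same way. Of 15 genes of the cep-1 and cell death list, cep-1 alone had an optimal summit in the gene or within 1000 bp. The others with a pooled candidate had highest signals from 31.2 at clk-2 to 78.4 at chk-1, and egl-1, hus-1 and phg-1 had none. Of 12 anion transporter genes, abts-1 and sulp-3 had one. The sulp-3 peak (signal 259, rank 76, chromosome X, summit 8404476) lay in an intron 23 bp from a tRNA gene. The other exchanger genes reached 90.8 at abts-4, 68.9 at abts-3 and 35.5 at abts-2 in the pooled list. Of 7 DEAH-box helicase genes found, F52B5.3 alone had one, with the next signal 109.9 at rha-1. Apart from the genes studied, 1 of the 31 others was thus called, against 6.52% of all protein-coding genes. So few genes cannot show whether these shares differ.

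The ce10 lists were matched without positions. Of the 10 peaks, 9 matched a ce10 optimal peak in width, summit offset and signal within 0.1%, with ce10 ranks from 126 to 736. The match was to 1 ce10 peak for 6 of them, whereas the abts-1 peak at 8306442 and the F52B5.3 peak at 8323016 had 2 candidates each and the cep-1 peak at 8327612 had 3, so those 3 matches are ambiguous and the closest signal was taken. The F52B5.3 peak at 8322275 had no such match. Its counterpart in the ce10 pooled list ranked 1025, and the ce10 optimal list held 992 peaks.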

How the data were processed

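Peak lists of 2 biological replicates were analysed as the authors deposited them. Per the submitters' file manifests, candidate lists came from the alignments of each replicate, or of both, with a control. Optimal lists followed from comparing candidate lists by the irreproducible discovery rate (IDR). Not given in the sources used here: aligner, peak caller, version numbers and cutoff. Each region's score was the signal value as the authors deposited it, with no stated scale, and a −log10 q value, also deposited, was used for its ceiling alone. Each candidate list held 30000 regions.

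Positions are 1-based on ce11, with Ensembl release 115 models, pandas 2.3.3 and scipy 1.17.1. No coordinates were converted, and ce10 lists served for matching by signal. Gene parts were taken in the order coding sequence, 5′ UTR, 3′ UTR, intron. An optimal peak was given the strongest candidate overlapping it in each replicate. Chromosome ends in the bins were taken from the last protein-coding gene. The functions for windows, gaps and runs were tested on simulated data. The members and lists were chosen with earlier results of these data known. Bins, the 259 dense windows and rank folds were added after the values were seen. Named are the 5 genes, genes within 20 kb or holding or nearest an optimal summit within 60 kb, and comparison genes with an optimal summit. Other genes were named after their values were seen. The members were chosen by these measures, so no test was made. Replicates are separate lists, so no SD is given.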

Additional observations from a re-analysis of the deposited data

How the results depend on the processing

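No paired analysis was possible because both libraries belong to 1 group. With a half-width of 10 kb the window held 5 optimal peaks with a median signal of 159.3, since the stretch reaches beyond it. A half-width of 60 kb, whole regions in place of summits, the stronger 516 optimal peaks (7) and ce10 matches (9, of which 3 ambiguous) kept the count within 1.5-fold of 10. A single replicate gave 8 of its strongest 1032 regions in either case, with 7 to 8 summits in genes. The regions were not all the same, since 5 of the 8 in either replicate overlapped the strongest set of the other. An optimal peak was overlapped by 6 of the 8 in replicate 1 and by 7 in replicate 2. The gap was 10.7 kb to 13.1 kb over all candidates of single replicates, and 15.9 kb (replicate 1) and 19.8 kb (replicate 2, with all of F52B5.3 inside it) over their strongest 1032. On that strongest set the stretch was 28.5 kb to 29.9 kb in single replicates and 40.035 kb with the strongest pooled candidates, 2 for each optimal peak. Median spacing was 1193 bp to 1845 bp in single replicates, so replicate 1 alone gave the wider value. With only replicate 1 or 2 used, the cause of these moves was not tested. Depth is unknown from the lists, which limits what an empty stretch can show.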

Other observations

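Replicate 2 had 1 region among its strongest 1032 within 60 kb of the midpoint that overlapped no pooled candidate and no candidate of replicate 1. Its summit at 8259565 of chromosome I lay 54.7 kb from the F52B5.7 midpoint, 67 bp from the snoRNA gene ZK265.10. The signal value was 162.3 and the rank 36, higher than that of any region of replicate 2 at the genes studied, where the best rank was 180. The region was 144 bp wide, whereas the regions of replicate 2 at the genes studied were 424 bp wide. Pooled candidates, followed outwards in steps of at most 10 kb, ended at 35.6 kb on that side.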
